A study of Homo sapiens with 2 samples.

Results

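The genes described here are 27 of those that encode proteins of the small subunit of the human cytosolic ribosome. They were taken by symbol from the protein-coding rows of a ribosome profiling count table, and all 27 symbols were found among its 19994 protein-coding rows. In ribosome profiling, nuclease removes the RNA that is not covered by ribosomes and the remaining footprints are sequenced, so a gene's count reflects how many ribosomes sat on its mRNA. HEK293T cells, a human embryonic kidney line that is easily transfected, were used for both libraries. Each group had 1 library, so differences below are between these 2 libraries, with no replicate check and no p-value.

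The culture with the reporter (library RiboW) was transfected with a plasmid for the fusion mCherry-T2A-EGFP, in which 1 position of EGFP is a TCG serine codon. It also received the plasmid for TetRS, an engineered pyrrolysyl-tRNA synthetase, with a set of 12 U6-driven cassettes. They express a tRNA whose CGA anticodon pairs with that serine codon. The culture without the reporter (library RiboWo) received only the TetRS and tRNA plasmid. The compound labelled TetBu was present in both, and both were wild-type HEK293T cells grown in 15 cm dishes. After 30 h of expression, cells were treated for 1 min with 0.1 mg/mL cycloheximide, which blocks elongation on cytosolic ribosomes. The tRNA was supplied in both, so the comparison concerns the presence of the reporter plasmid, from which a difference in the dose of the TetRS plasmid cannot be told apart.

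The small subunit binds the mRNA, carries the decoding centre and scans for the start codon. Its proteins and a ribosomal RNA form a head, a body and a platform, and each protein is generally present in a single copy per particle. The mRNAs of ribosomal proteins are known for a terminal oligopyrimidine (TOP) motif, a C at the cap followed by a run of pyrimidines, through which the kinase mTOR and the protein LARP1 control their translation. Cells therefore usually make these proteins together.

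The starts of the genes are shown because this motif is the feature that joins the family. In the RefSeq table of gene starts (GRCh38.p14), an entry was used for 24 of the 27 genes. No entry was used for RPS2, RPS15A and RPS20, so their starts were not assessed. That does not show that these genes have no entry. The search asked for a C on the first annotated base, then at least 4 bases that are C or T, on the strand of the gene. Of the 24 genes, 18 (75%) had such a run at a listed start, with a length of 6 to 14 bases. Among all 27305 genes in that table the share was 5.14%, and among 38 matched large-subunit genes it was 73.7%. The rule for leaving genes out may differ between these shares and that of the members. A match describes letters in this window and does not show where transcription began in these cells. Below, 25 bases are given 5′ to 3′, with 10 before the annotated start and 15 from it, and the run in capitals. The genes are the 3 most counted (RPS14, RPS6, RPS18), the longest run (RPS24), and those with the highest and the lowest ratios (FAU, RPS27, RPS28, RPS23, RPS26).
RPS14: ccctcccactCTCTCTTTCCggtgt
RPS6: gaagttggccCTCTTTTCCgtggcg
RPS18: cacttccgctCTCTCTTCCacagga
RPS24: aatcgtggttCTCTTTTCCTCCTTg
FAU: tcgcttcttcCTCTTTCTCgactcc
RPS27: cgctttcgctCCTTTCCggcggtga
RPS28: gaagcacgtgactcctctccgccag
RPS23: cggtgcttctCTCTTTCgctcaggc
RPS26: acataacctcgattttcttccgcca

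The window of RPS14 lies at chr5:150449725-150449749 on the minus strand, that of RPS6 at chr9:19380222-19380246 (minus), and that of RPS18 at chr6:33272065-33272089 (plus). Those of RPS24 and FAU are chr10:78033853-78033877 (plus) and chr11:65122120-65122144 (minus). RPS27 and RPS28 are at chr1:153990752-153990776 and chr19:8321486-8321510, both plus. RPS23 and RPS26 are at chr5:82278340-82278364 (minus) and chr12:56041908-56041932 (plus). The 6 genes without the run at a listed start were RPS4X, RPS7, RPS15, RPS26, RPS28 and RPS29. In RPS26, RPS28 and RPS29 the RefSeq start lay 567, 338 and 454 bases inside the start that the count table lists, so the annotations do not share 1 start for them. That was also so for genes with the run, such as RPS25 (348 bases) and RPS24 (103), while for RPS4X and RPS7, without the run, the starts were the same.

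All 27 genes had counts in both libraries, and together they had 9396 counts with the reporter, against 8070 without it. That was 2.71% of protein-coding counts with the reporter (exact 95% interval 2.66 to 2.77%), against 2.62% in the other library (2.57 to 2.68%). Intervals here are Clopper-Pearson intervals and cover counting error only. Reads copied by PCR are not independent molecules, so they may be too narrow even for that. The log2 ratio of these shares was 0.05 (0.01 to 0.09). Leaving out the 8 members whose locus holds a small RNA gene brought it to -0.0037. Without mitochondrially encoded genes in the denominator it was 0.0045.

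The libraries held 2519301 counts with the reporter, against 3151403 without it, of which 346240 in RiboW and 307768 in RiboWo were protein-coding. The reporter itself had 271843 counts with the reporter plasmid and 399 without it, as the titles label them, and TetRS had 30286 in RiboW and 59723 in RiboWo. The 7 HEK293-associated genes had 340 counts in RiboW and 268 in RiboWo, with NES at 0 in RiboWo. Most of these, in RiboW and RiboWo, were in VIM (148 and 131), NEFL (106 and 49) and NEFM (56 and 50). SALL1 (20 and 27), LHX1 (5 and 7) and PAX2 (2 and 4) were sparse and had fewer counts in RiboW. Markers of other cell types were sparse. Fibroblast markers had 18 counts with the reporter, against 55 without it, over 6 of 7 genes, with POSTN at 0. Leukocyte markers had 5 in RiboW and 20 in RiboWo over 4 of 7 genes, with PTPRC and CD3E among those at 0, and hepatocyte markers had 1 in RiboW and 25 in RiboWo over 3 of 5 genes, with TTR and APOA1 at 0. In pooled counts the fibroblast, leukocyte and hepatocyte lists were lower with the reporter, as was TetRS. Within the lists LUM, THY1, CD14 and LYZ went the other way, with 0 counts in RiboWo and at most 3 in RiboW. The part of these lists and of TetRS in the results below was not tested. Without a matched RNA library, the amount of an mRNA and its translation cannot be told apart.

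Ratios below are log2 ratios of counts, with the reporter over without it, relative to the median protein-coding gene. That median was taken over the 1060 coding genes that had 100 or more counts in both libraries together, called measured here. It lay at 0.24 in raw counts, and setting it to 0 gives single genes and lists the same zero under any library scaling. Of the 27 members, 23 were measured. FAU, RPS2, RPS15A and RPS10 had fewer counts. On this zero the pooled counts of all 27 members were at -0.02 (-0.07 to 0.02), the other sign from the ratio of shares above, and the interval covered 0. To be called higher or lower, a gene had to differ at least 2-fold with an interval that excluded 0.

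The members' ratios centred near those of other coding genes. Their median ratio was 0.02 over the 23 measured genes, with quartiles of -0.17 and 0.25, and 12 lay above 0 and 11 below. The mean had the other sign, at -0.03. All measured coding genes had quartiles of -0.28 and 0.31 around their median of 0. The SD of the ratios was 0.40 among the members and 0.46 among all measured coding genes. No member was called higher with the reporter, where 1.79% of all measured coding genes were. RPS26 was called lower, 1 of 23, where 1.32% of all measured coding genes were. At 1.5-fold no measured member was higher (10.4% of coding genes were) and 2 were lower (10.5% were), namely RPS26 and RPS23. Intervals wholly above 0 were found for 6 measured members, against 17.8% of coding genes, and wholly below 0 for 4, against 16.1%. The members were counted more deeply, with 10 of 23 at 500 summed counts or more, against 105 of 1060 coding genes. The SDs and shares here were not matched for depth.

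**Figure D1:**
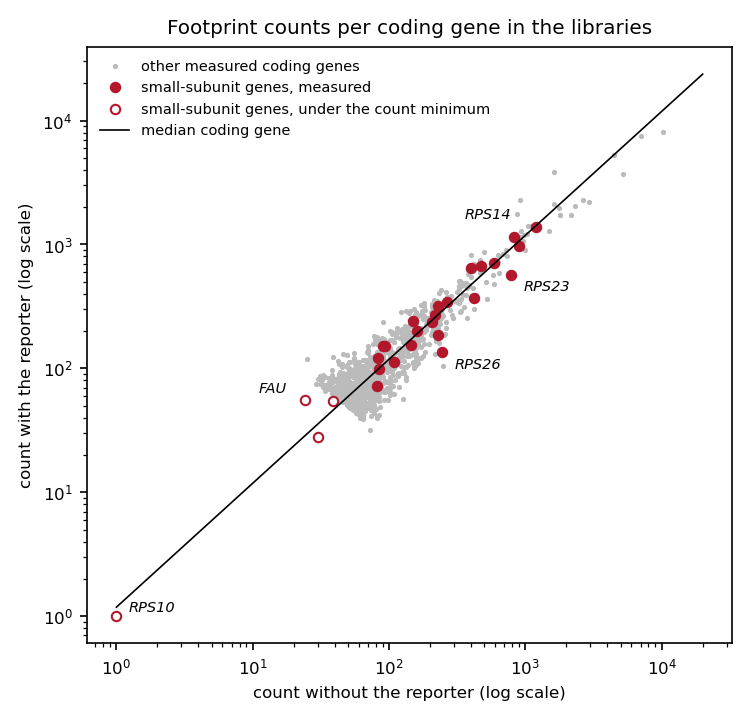
Count of each measured protein-coding gene with the reporter (vertical axis, log scale) against its count without the reporter (horizontal axis, log scale), with small-subunit genes as large points (filled where measured, open under the minimum of 100 summed counts). The line marks the median coding gene. The members lie along the line from 1 count in each library for RPS10 to 1371 counts in RiboW and 1195 in RiboWo for RPS14, with RPS23 and RPS26 below it.

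The 3 most counted members made up 37.2% of the members' counts with the reporter, against 36.2% without it. RPS14, a platform protein whose loss on one chromosome arm underlies the anaemia of the 5q- syndrome, had 1371 counts with the reporter, against 1195 without it. It lies on chromosome 5, 150442635 to 150449739, and its ratio was -0.05 (-0.16 to 0.07). RPS6, the body protein phosphorylated by S6 kinases downstream of mTOR, had 1150 counts with the reporter, against 832 without it (0.22, 0.09 to 0.35). RPS18, a head protein at a bridge between the subunits, had 971 counts in RiboW and 896 in RiboWo (-0.13, -0.26 to 0.004). RPS6 was thus above the median coding gene by more than counting error, and the intervals of RPS14 and RPS18 covered 0.

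RPS26 had the lowest ratio of all members. This platform protein lines the channel through which the mRNA leaves the subunit. It had 136 counts, or 23.1 RPKM, with the reporter and 244 counts, or 43.0 RPKM, without it. The ratio was -1.09 (-1.40 to -0.78), which is 2.12 times fewer counts relative to the median coding gene (1.72 to 2.64). RPS26 lies on chromosome 12, 56041351 to 56044697, and ranked 284th among coding genes with the reporter and 98th without it. Other scalings move all genes by 1 constant, so its distance from the median coding gene is the same in each, but the 2-fold call depends on that zero. Scaled by protein-coding counts, which moved the coding median to 0.07, RPS26 was at -1.01. Under TMM, DESeq2 size factors or total counts, with coding medians of 0.11, 0.19 and 0.57, it was at -0.98, -0.90 or -0.52. The gene has 35 annotated pseudogene rows, which together held 1 count with the reporter, against 2 without it.

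RPS23, a protein of the decoding centre, had 571 counts with the reporter, against 782 without it. Its ratio was -0.70 (-0.86 to -0.54), and its level was 48.9 RPKM with the reporter, against 69.7 without it. RPS28, a small protein near the mRNA exit, had 185 counts with the reporter, against 229 without it (-0.55, -0.84 to -0.27). RPS3A, a platform protein, had 72 counts in RiboW and 82 in RiboWo, and its interval covered 0 (-0.43, -0.91 to 0.04). RPS24, a body protein, had 371 counts in RiboW and 422 in RiboWo (-0.43, -0.64 to -0.23). RPS26, RPS23, RPS28 and RPS24 were the 4 members with intervals wholly below 0, and in each the raw count was lower with the reporter although the coding total was higher there.

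At the other end stood FAU, which encodes a ubiquitin-like protein fused to the ribosomal protein S30 and is cut after translation. FAU had 56 counts with the reporter, against 24 without it, under the count minimum, at a ratio of 0.98 (0.26 to 1.73). Its locus on chromosome 11, 65120630 to 65122177, overlaps SYVN1 on the same strand, which had 8 counts with the reporter, against 35 without it. The sources used here do not say how reads in shared stretches were assigned.

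Among the measured members RPS27, a zinc finger protein of the subunit, was highest at 0.51 (0.12 to 0.90), with 153 counts with the reporter, against 91 without it. RPSA, which is also known as the laminin receptor, had 152 counts in RiboW and 94 in RiboWo (0.45, 0.07 to 0.84). RPS15, a head protein needed for nuclear export of the precursor subunit, had 242 counts in RiboW and 150 in RiboWo (0.45, 0.15 to 0.75). RPS19, the gene most often mutated in Diamond-Blackfan anaemia, had 646 counts in RiboW and 401 in RiboWo (0.44, 0.26 to 0.63). RPS25, a head protein that viral internal ribosome entry sites depend on, had 672 counts in RiboW and 470 in RiboWo (0.27, 0.10 to 0.44). Together with RPS6 these are the 6 measured members with intervals wholly above 0. None of the 6 reached 1.5-fold, while FAU, under the count minimum, was at 1.97-fold. The interval of RPS26 lay below those of all 6. That follows from how they were picked, since its interval lay wholly below 0 and theirs wholly above.

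**Figure D2:**
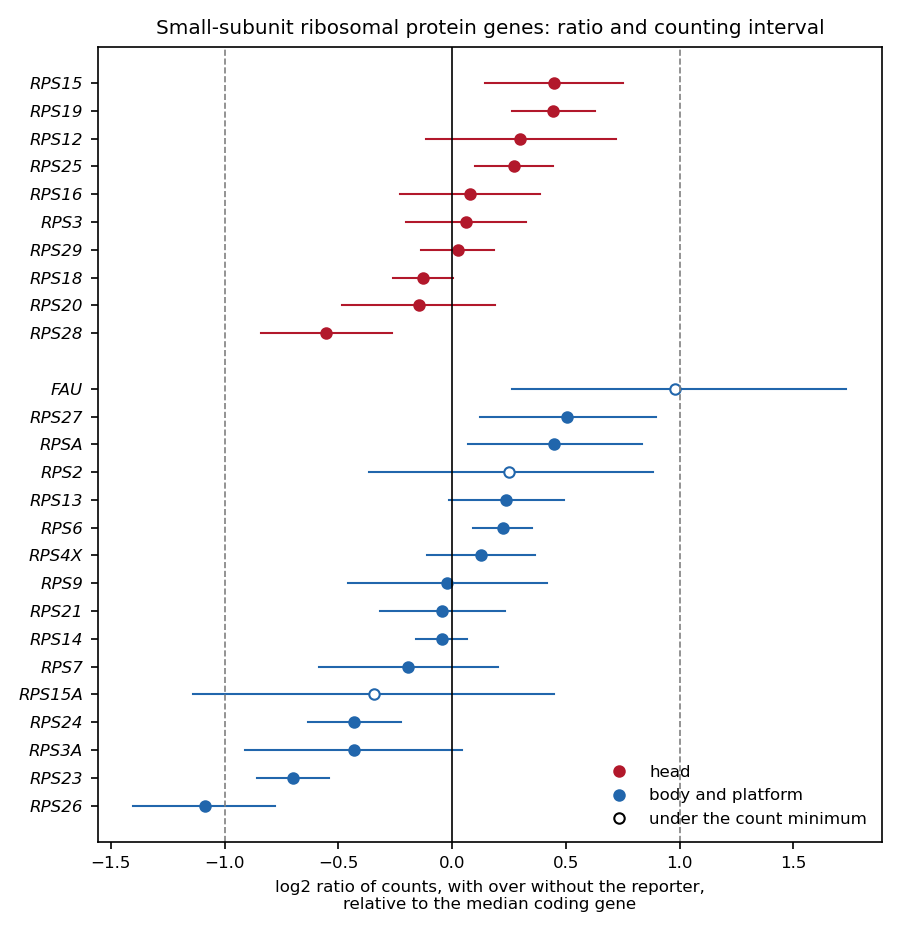
Log2 ratio of counts, with over without the reporter and relative to the median coding gene (horizontal axis), for 26 members, with bars for the exact 95% counting interval. Head proteins are above, body and platform proteins below, open points are members under 100 summed counts, and dashed lines mark 2-fold. RPS10, with 1 count in each library, is left out. RPS26 is the only measured member beyond a dashed line, at -1.09.

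A further 5 measured head proteins had ratios between -0.15 and 0.30. RPS12 had 121 counts with the reporter, against 83 without it (0.30, -0.12 to 0.72). RPS16, whose tail reaches the tRNA in the P site, had 200 counts in RiboW and 160 in RiboWo (0.08, -0.23 to 0.39). RPS3, at the mRNA entry channel, had 269 counts in RiboW and 218 in RiboWo (0.06, -0.20 to 0.32). RPS29, a zinc-binding protein, had 713 counts in RiboW and 592 in RiboWo (0.02, -0.14 to 0.18). RPS20, which is ubiquitinated on stalled ribosomes, had 154 counts in RiboW and 144 in RiboWo (-0.15, -0.48 to 0.19). All 5 intervals covered 0.

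The remaining body and platform proteins also had intervals that covered 0. RPS13 was at 0.24 with 317 counts with the reporter, against 227 without it, and RPS4X, encoded on the X chromosome, at 0.13 with 341 counts in RiboW and 264 in RiboWo. RPS9, at the mRNA entry, was at -0.02 with 98 counts in RiboW and 84 in RiboWo, RPS21 at -0.04 with 239 counts in RiboW and 208 in RiboWo, and RPS7 at -0.19 with 112 counts in RiboW and 108 in RiboWo. Under the count minimum, RPS2 had 55 counts in RiboW and 39 in RiboWo (0.25) and RPS15A had 28 counts in RiboW and 30 in RiboWo (-0.34). Their intervals ran from -0.37 to 0.88 for RPS2 and from -1.14 to 0.45 for RPS15A, so no difference was detectable at this depth.

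By region of the subunit, 7 of 10 measured head members lay above 0, against 5 of 13 body and platform members. The median was 0.07 for the head and -0.04 for the body and platform. Pooled over all 11 head members, counts were 4174 with the reporter, against 3344 without it, a ratio of 0.08 (0.01 to 0.14). The 16 body and platform members had 5222 counts in RiboW and 4726 in RiboWo, a ratio of -0.10 (-0.16 to -0.04). Without RPS23 and RPS26 the body and platform members were at 0.04 (-0.02 to 0.11). These are the 2 lowest measured members, picked by their values, so leaving them out had to raise the ratio, and the head list was not trimmed likewise. Of the 10 members listed as genes of Diamond-Blackfan anaemia, an inherited failure of red cell production, 8 were measured. Their median was -0.17, with a range from -1.09 in RPS26 to 0.51 in RPS27, and 3 lay above 0 and 5 below.

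Members with and without the pyrimidine run overlapped widely. The 16 measured genes with the run had a median ratio of 0.07, from -0.70 (RPS23) to 0.51 (RPS27). The 6 measured genes without it had a median of -0.08, from -1.09 (RPS26) to 0.45 (RPS15). The split by run was made after the ratios were known. The ratio also showed little relation to depth, with a Pearson r of -0.01 and a Spearman rho of -0.05 against the log2 summed count over the 23 measured members, which share both libraries. Against the log2 listed gene length over the same genes, r was -0.21 and rho -0.28.

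Within a library the members differed far more than between the libraries. Levels per length were taken as the deposited RPKM, which divides by the listed gene length. RPS18 was highest in both, with 184 RPKM with the reporter, against 177 without it. The lowest measured members were RPS7 with the reporter, at 7.05 RPKM, and RPS9 without it, at 7.06. The highest was 26.1 times the lowest with the reporter and 25.0 times without it. Between RPS18 and RPS7 stood RPS25 at 158 RPKM with the reporter, against 115 without it, RPS6 at 148 in RiboW and 112 in RiboWo, and RPS14 at 93.9 in RiboW and 85.1 in RiboWo. The order of the members was nearly the same in both libraries, with a Pearson r of 0.96 and a Spearman rho of 0.93 on log2 RPKM over 23 genes. All 1060 measured coding genes gave an r of 0.97 and a rho of 0.94. Each gene's RPKM divides by the same listed length in both libraries, so that shared length contributes to these agreements.

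The listed lengths are not coding lengths. They ran from 639 bases for RPS12 to 9840 for RPS29 and covered 8.93 to 100% of the locus, with a median of 61.3% over measured members. An RPKM therefore sets a gene with long listed exons low, and the 26.1-fold range holds differences in listed length as well as in footprints. In counts alone the range was 19.0-fold with the reporter, from RPS3A to RPS14, and 14.6-fold without it, between the same genes.

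**Figure D3:**
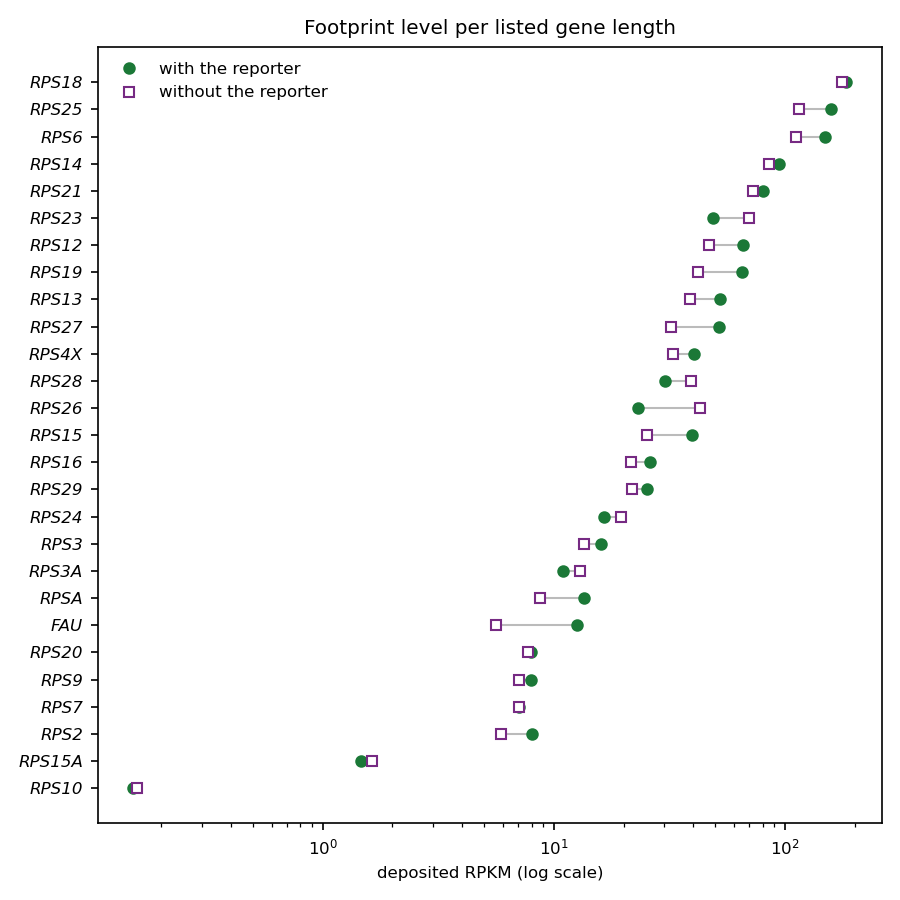
Deposited RPKM (horizontal axis, log scale) of the 27 members with the reporter (filled circles) and without it (open squares), ordered by the sum of both. The order runs from RPS18, at 184 RPKM in RiboW and 177 in RiboWo, to RPS10, at 0.151 in RiboW and 0.157 in RiboWo. The symbols of a gene lie close together beside the spread between genes, with wider gaps for RPS26 and FAU.

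RPS10, a head protein ubiquitinated on stalled ribosomes, had 1 count in each library. Its locus on chromosome 6, 34417454 to 34426069, is overlapped on the same strand by the readthrough gene RPS10-NUDT3, which had no counts. The 12 pseudogene rows named for RPS10 held 18 counts with the reporter, against 12 without it, of which RPS10P16 had 10 in RiboW and 6 in RiboWo. The level of RPS10 is therefore uncertain in these tables, and no ratio could be read at this depth.

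Ribosomal protein genes have many processed pseudogenes, near copies to which reads could be assigned. The 27 members had 427 such rows by name, 75 of them with a count, and their counts summed to 263 with the reporter, against 190 without it. For 11 members no pseudogene had a count, and the median share of pseudogene counts in the total of parent and pseudogenes was 0.408%. The share passed 5% for 5 members. For RPS4X it was 28.9%, as RPS4XP22 alone had 122 counts with the reporter, against 86 without it. For RPS3A it was 22.6%, for RPS2 16.1% and for RPSA 14.3%, so these counts are uncertain, like those of RPS10.

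Several members carry small nucleolar RNA (snoRNA) genes, guides of RNA modification, in their introns. The locus of RPS12 holds SNORD101, which had 1965 counts with the reporter, against 2613 without it, far more than RPS12 itself. SNORD101 was at -0.66 (-0.74 to -0.57), while RPS12 was at 0.30, with intervals that did not overlap. The other two snoRNA genes with counts in that locus had ratios near that of RPS12. SNORA33 had 86 counts in RiboW and 61 in RiboWo (0.25, -0.24 to 0.75), and SNORD100 had 75 counts in RiboW and 52 in RiboWo (0.28, -0.25 to 0.82). RPS3 holds SNORD15B, with 339 counts in RiboW and 240 in RiboWo (0.25, 0.01 to 0.50), and RPS13 holds SNORD14A, with 112 counts in RiboW and 128 in RiboWo (-0.44, -0.82 to -0.06). The 7 measured members with a small RNA gene in the locus had a median ratio of 0.24, and the 16 without one had a median of -0.03. Of these 7, RPSA, RPS20 and RPS3A hold only snoRNA genes that had no counts. RPS19 is among them through a microRNA gene, MIR6797, with 0 counts in RiboW and 2 in RiboWo. Leaving out every coding gene with a small RNA gene kept 885 of the 1060 measured ones. Setting their median to 0 moved the remaining members' ratios by at most 0.0062. The median of the coding genes that hold one was not taken, and a link to the ratios was not tested. Neither RPS23 nor RPS26 holds one.

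Related lists are set beside the members as a description, since with 1 library per group no difference between lists could be tested. The 39 measured large-subunit genes had a median of 0.09, from RPL13A at 0.64 to RPL15 at -0.87, with 20 above 0 and 19 below. None was called 2-fold higher or lower. Their pooled counts were 14949 with the reporter, against 12278 without it, or 4.32% of coding counts in RiboW and 3.99% in RiboWo.

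Of 53 listed factors that assemble the small subunit, 15 were measured, with a median of 0.06 and 10 above 0. PDCD11, a factor of early rRNA processing, was highest at 0.62 (0.07 to 1.18), with 80 counts with the reporter, against 44 without it. WDR3, a subunit of the processome, was lowest at -0.85 (-1.47 to -0.25), with 40 counts in RiboW and 61 in RiboWo. None of the 15 was called 2-fold higher or lower. None of 7 dedicated chaperones and partners of small-subunit proteins was measured, and together they had 183 counts with the reporter, against 139 without it. TSR2, the chaperone of the RPS26 protein, had 14 counts in RiboW and 22 in RiboWo, too few to read a difference (-0.90, -1.98 to 0.14). PDCD2 had the same counts. LTV1 had 61 counts in RiboW and 30 in RiboWo (0.78, 0.13 to 1.46). PRMT3 had 26 in RiboW and 10 in RiboWo (1.13, 0.03 to 2.35). PDCD2L and ZNF277 were also above 0 and RPS19BP1 below, with intervals that covered 0.

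**Figure D4:**
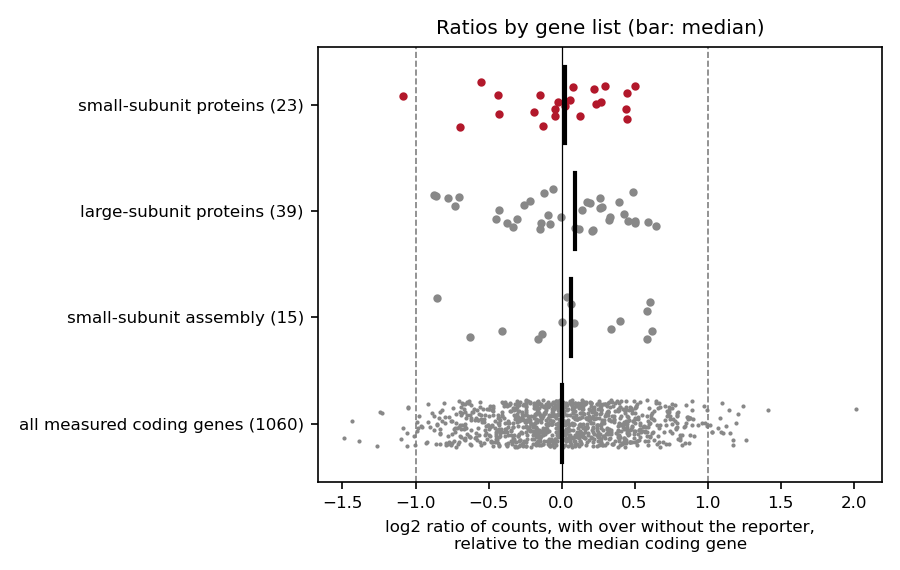
Log2 ratio of counts, with over without the reporter and relative to the median coding gene (horizontal axis), for each measured gene of 4 lists, with the number measured in brackets, bars at the medians and dashed lines at 2-fold. The medians were 0.02 for small-subunit proteins, 0.09 for large-subunit proteins, 0.06 for assembly factors and 0 for all measured coding genes. The point of the members at -1.09 is RPS26.

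RPS27A, a small-subunit protein made as a fusion with ubiquitin and not among the 27, had 52 counts in RiboW and 61 in RiboWo (-0.47, -1.04 to 0.08). RPS27L, a paralog of RPS27, had 17 counts in RiboW and 8 in RiboWo.

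Of 12 listed regulators of TOP mRNAs, 4 were measured. The 12 together had 719 counts in RiboW and 782 in RiboWo, a pooled ratio of -0.37 (-0.51 to -0.22). LARP1, which binds the motif, had 101 counts with the reporter, against 95 without it (-0.16, -0.57 to 0.26), and MTOR had 54 counts in RiboW and 46 in RiboWo (-0.01, -0.61 to 0.59). CNBP, a protein that binds such mRNAs, was lowest of the 4 at -0.46 (-0.69 to -0.23), and TIAL1 highest at 0.24. Under the count minimum, LARP4 had 26 counts in RiboW and 52 in RiboWo (-1.24, -1.98 to -0.54). EIF4EBP2, also under it, had 35 counts in RiboW and 62 in RiboWo (-1.07, -1.71 to -0.45). The intervals of the other unmeasured regulators covered 0. Of the 10 genes that ubiquitinate or deubiquitinate the small subunit or take part in that response, 3 were measured, and all 3 intervals covered 0. They were RACK1 at -0.004 (-0.12 to 0.12) with 1219 counts in RiboW and 1032 in RiboWo, G3BP1 at -0.14 (-0.70 to 0.41) and RNF10 at -0.47 (-0.99 to 0.05). ZNF598, the ligase of RPS10 and RPS20, had 29 counts with the reporter, against 24 without it. USP10, of the same list and also under the count minimum, had 20 counts in RiboW and 37 in RiboWo (-1.13, -1.99 to -0.31). The intervals of the other unmeasured genes of this list covered 0.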

How the data were processed

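The members and lists were chosen with earlier results of these data known. Whole-number counts per gene were deposited for 61554 rows. TopHat2 2.0.12 and HTSeq 0.9.1 are listed per the submitters' processing notes. Strand handling and multiply matching reads are not given in the sources used here. Coordinates are as in the deposited files. All 27 member loci overlapped RefSeq GRCh38.p14. The authors' RPKM values equalled counts over listed length and 1 library size (2873483 with the reporter, 2762965 without it).

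Ratios, intervals (95%) and lists were computed with Python 3.11.15, scipy 1.17.1 and pandas 2.3.3. The alternatives used edgeR 4.0.16 (TMM), DESeq2 1.42.0 size factors, other count minimums, thinning and RPKM plus 0.1. Steps were tested on simulated data. Counts per codon were planned, but coding lengths were not used here, so RPKM took their place. Named in full are the 4 highest and 4 lowest ratios, the 3 most counted members, the highest and lowest by level, and the extremes of each list. Some listed genes outside the 27 are not reported here.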

Additional observations from a re-analysis of the deposited data

How the results depend on the processing

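Centred on the coding median, the members' median ratio of 0.02 was 0.05 at a count minimum of 500 and 0.093 at a minimum of 20, where 26 members entered. It was -0.039 when genes with a small RNA gene in the locus were left out, and -0.027 as a mean. Without centring it was 0.14 under TMM, 0.21 under DESeq2 size factors, 0.10 under protein-coding counts and 0.59 under total counts, which moved the median of all coding genes to 0.11, 0.19, 0.07 and 0.57. Members at least 2-fold lower numbered 1, and 0 under TMM, DESeq2 size factors, total counts or a minimum of 500, where RPS26 did not enter. They numbered 2 at 1.5-fold, and 4 by the interval alone, a rule added after seeing the data. Members at least 2-fold higher numbered 0, against 4 under total counts, 1 at a minimum of 20 (FAU) and 6 by the interval alone. Among all measured coding genes the split of 19 higher and 14 lower was 30 and 6 under TMM, 46 and 6 under DESeq2 size factors, 25 and 8 under protein-coding counts, and 190 and 0 under total counts. At a minimum of 20 it was 343 and 468, and at 500 it was 1 and 0.

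The log2 ratio of the members' share was 0.05, and -0.0037 without members whose locus holds a small RNA gene, 0.0045 without mitochondrially encoded genes and 0.54 over all rows. The pooled body and platform value was -0.10, and 0.04 without RPS23 and RPS26, its 2 lowest measured members, picked by their values. The range of RPKM stayed between 25.0 and 26.1-fold when members with a small RNA gene, or with under 200 summed counts, were left out. RPS18 and RPS7 stayed in under either rule, so the range could hardly change. The listed length was not varied. Thinning RiboW, which held more protein-coding counts, to the coding total of RiboWo moved single ratios by up to 0.13. The scalings without centring differ from the centred values by 1 constant for all genes. No paired analysis was possible because each group had 1 library. Counts under 100 per gene limit FAU, RPS2, RPS15A and RPS10.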
